A study of Homo sapiens with 15 samples.

Results

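The RPMI8226 human myeloma cell line was compared between direct coculture with HS5 bone marrow stromal cells, called CO here, and monoculture, called MONO. The comparison took the CO1, CO2, MONO1 and MONO2 libraries of the RPMI8226 expression table. Its members were the genes with a mean of at least 1 RPKM (read pairs per kilobase of gene and per 1e+06 read pairs) over the 6 libraries of that table. These were 10319 of the 20468 genes listed, or 50.4%. Of the other 10149 genes, which were not tested, 3684 had no read pair in any of the 6 libraries.

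Messenger RNA was measured in RPMI8226 and MM.1S, both established lines from human plasma cell myeloma, in 3 culture conditions of 48 hours. In CO, myeloma cells shared the lower chamber of a transwell plate with the HS5 layer and were exposed to contact and to soluble factors. In the transwell condition, called TSW, myeloma cells sat in the upper chamber of those plates, above both cell types, and a membrane kept them from contact. MONO cells were seeded in plates with no HS5 cells. RPMI8226 had 2 libraries in each condition and MM.1S had 9 libraries in all, 3 in each condition. By the study's methods, cells were harvested with trypsin in the coculture conditions and sorted as live cells positive for CD38 and negative for CD90 before RNA was isolated. Each line is one culture-adapted population, HS5 is itself an immortalized line, and nothing in the labels says that libraries of a condition came from separate cultures. The p-values below therefore measure the spread between libraries.

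Depth was counted in paired-end tags (PETs, read pairs assigned to a gene). MONO1 and MONO2 held 12479636 and 14806058 PETs, TSW1 and TSW2 18538060 and 17929263, and CO1 and CO2 16315809 and 18789348. On a transcript of 2 kilobases, 1 PET was an RPKM of 0.0401 in MONO1, the shallowest library, and 0.0266 in CO2, the deepest. A count of 0 allows up to 3 PETs in a library, and bounds from this floor cover counting error only.

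Plasma cell genes were checked first against the label. SDC1, which encodes the plasma cell surface proteoglycan CD138, was at RPKM 70.4 and 73.2 in MONO and 77.6 and 86.6 in CO. XBP1, a transcription factor of secretory cells, was at 192 and 191 in MONO and 398 and 414 in CO, and MZB1, a chaperone for immunoglobulin assembly, at 523 and 536 in MONO and 889 and 911 in CO. These genes were expressed in all 6 libraries, as were IRF4, PRDM1, TNFRSF17 and CD38. SLAMF7, another plasma cell surface marker, was near 0, at most RPKM 0.104 in a library. The B cell gene MS4A1 had no PET in any library and PAX5 reached at most 0.659. Of the sort genes, CD38 was at RPKM 16 and 16 in MONO, 49.6 and 42 in TSW and 52.2 and 53.7 in CO, and THY1, which encodes CD90, at 0.0669 and 0.0282 in MONO, 0 and 0 in TSW and 0.0767 and 0.111 in CO. CD38 was thus higher in both cocultured conditions, without overlap, while THY1 was close to the limit of detection throughout. The sort selected on both proteins, so these values hold for sorted cells, and low THY1 cannot show whether HS5 RNA was present.

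Myeloma cells grow in the bone marrow beside stromal cells, which make interleukin 6 and related cytokines. Such cytokines bind receptors that share gp130, the product of IL6ST, and activate JAK kinases and the transcription factor STAT3, while interferons use related kinases and STAT factors. A plasma cell spends much of its synthesis on secreted protein and so depends on endoplasmic reticulum chaperones, on the unfolded protein response and on the proteasome.

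The libraries lay apart by condition. Over the genes tested, the Euclidean distance on the log2(RPKM + 1) scale averaged 84.8 between MONO and CO libraries, 76.1 between MONO and TSW and 36.8 between TSW and CO. Within a condition it was 15.8 for MONO, 18.8 for TSW and 15.0 for CO. A first principal component with 84.2% of the variance put MONO1 and MONO2 at -51.8 and -51.8, TSW1 and TSW2 at 21.8 and 19.2, and CO1 and CO2 at 31.8 and 30.8. The second, with 11.8%, separated TSW at -14.5 and -21.0 from CO at 15.9 and 14.9, with MONO at 4.09 and 0.622. CO libraries therefore lay farthest from MONO on the first component and opposite TSW on the second.

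Genes were called with limma when the Benjamini-Hochberg adjusted p was under 0.05 and the fold change of RPKM + 1 over 1.5. In CO against MONO, 1693 genes were called higher (16.4%) and 2363 lower (22.9%) of the 10319 tested. All 4056 called genes had CO values that did not overlap the MONO values, but so did many uncalled ones, 8974 genes (87.0%) in all. With 2 libraries in each condition, non-overlap is therefore common and adds little. The fold threshold decided most calls, as 7422 genes passed the adjusted p alone. The median log2 fold change of all genes tested was -0.09. Lower calls made up 58.3% of the calls, a split that depended on scaling: with median-of-ratios scaling 1994 genes were higher and 1927 lower, and with quantile normalization 1896 and 2074. On the RPKM scale, 128 genes called higher and 17 called lower changed at least 10-fold, 318 and 163 at least 4-fold, and 1053 and 1261 at least 2-fold. Of the genes called higher, 19 had no PET in either MONO library and 114 averaged less than RPKM 2 in MONO and in TSW. Of those called lower, 313 averaged less than RPKM 2 in CO. Of the genes called higher, 57 averaged less than RPKM 1 over the MONO and TSW libraries, and of those called lower 106 did so over TSW and CO. These would not have passed the expression filter without CO or without MONO, so the filter favoured their direction. Genes low in MONO that passed through TSW and CO together were also favoured in direction but are not in the first count. In TSW against MONO, 1500 genes were higher (14.5%) and 1852 lower (17.9%) of the same 10319.

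**Figure D1:**
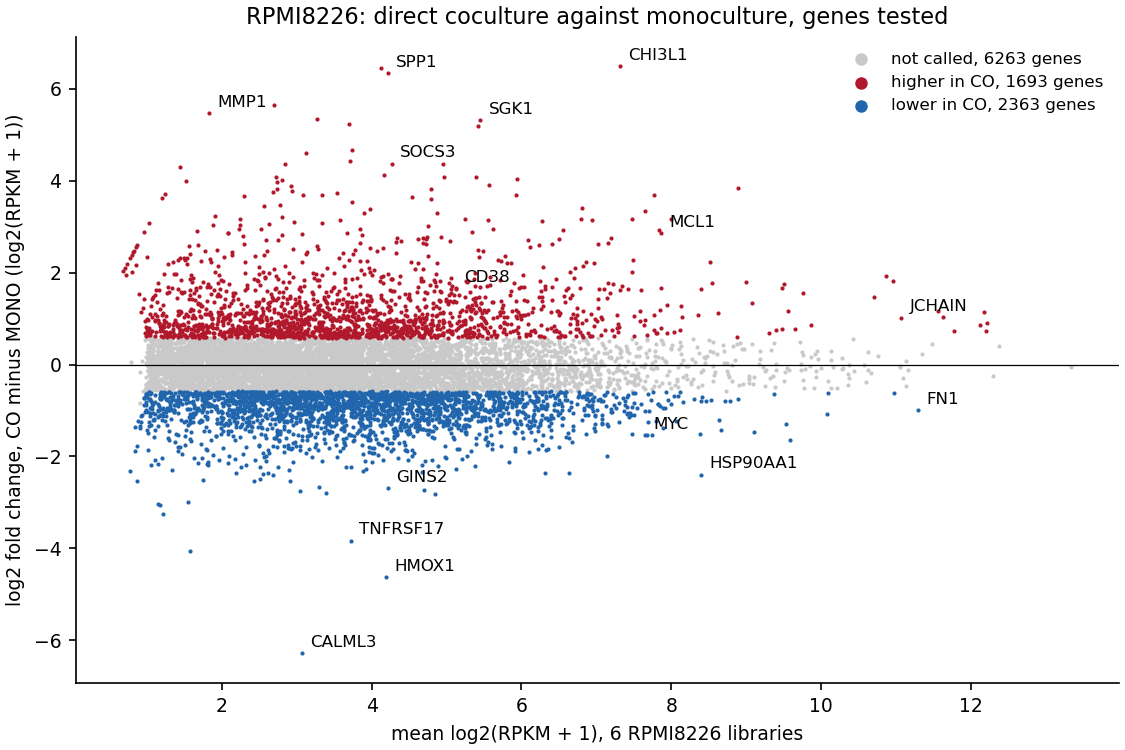
Each point is a gene tested, with its mean log2(RPKM + 1) over the 6 RPMI8226 libraries on the horizontal axis and its log2 fold change, CO minus MONO, on the vertical axis. Red points are the 1693 genes called higher in CO and blue points the 2363 called lower, and changes of at least 4-fold on the RPKM scale are increases in 318 genes and decreases in 163.

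On the log2(RPKM + 1) scale, the largest increase was in CHI3L1 (Entrez 1116), which encodes a secreted chitinase-like glycoprotein. Its RPKM was 8.06 and 7.44 in MONO, 546 and 614 in TSW and 791 and 787 in CO, a log2 fold change of 6.50 (SE 0.07, limma, Benjamini-Hochberg adjusted p = 7.3e-12). CO values lay above TSW values and both lay far above MONO. HSD11B1 (Entrez 3290), the enzyme that makes cortisol from cortisone, had no PET in MONO and was at RPKM 63.1 and 57.2 in TSW and 91.7 and 81.1 in CO. Against the floor of 3 PETs per MONO library it was at least 611-fold higher in CO. SPP1 (Entrez 6696) encodes osteopontin, a secreted matrix protein that bone cells and immune cells bind. It too was at 0 in MONO, at 70.4 and 85.2 in TSW and 76.4 and 84.8 in CO, at least 660.1-fold higher. CFI (Entrez 3426), the protease complement factor I, went from 0 in MONO to 22 and 20.2 in TSW and 40.9 and 38.4 in CO, at least 454-fold higher. For HSD11B1 and CFI the CO values lay above the TSW values, and for SPP1 these conditions overlapped.

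SGK1, a kinase that glucocorticoids and serum induce, was at RPKM 2.19 and 3.02 in MONO and 148 and 135 in CO, with a log2 fold change of 5.31. The myosin-binding protein genes MYBPC2 and MYBPH, best known from skeletal muscle, were at 0.178 and 0.15 in MONO and 42.4 and 42.7 in CO for MYBPC2, and at 0.57 and 0.707 in MONO and 37.5 and 44.2 in CO for MYBPH. MMP13, the gene of a collagenase, was at 3.95 and 2.66 in MONO and 168 and 144 in CO. None of these overlapped between MONO and CO, and all lay far above MONO in TSW too, where SGK1 was at 167 and 157 and MMP13 at 139 and 99.3. The remaining members of the 10 largest increases were CXCL8 and MMP1, which also stood in the list of stromal markers and are described with it. With genes under RPKM 2 in both MONO and TSW set aside, PAEP took the place of MMP1. It encodes the secreted lipocalin glycodelin and was at 0.158 and 0.333 in MONO, 15.6 and 17.2 in TSW and 27.8 and 30.9 in CO. HSD11B1, SPP1, CFI, MYBPC2, MYBPH, CXCL8 and PAEP averaged less than RPKM 1 in MONO and passed the expression filter through TSW and CO. The filter favoured their direction, so their p is not given. MMP1 passed the expression filter through CO alone, so its direction was set by the filter and its p is not given.

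CALML3 (Entrez 810), a calmodulin-like calcium-binding protein gene, showed the largest decrease on that scale. Its RPKM was 168 and 171 in MONO, 0.313 and 0.889 in TSW and 1.24 and 1.12 in CO, a log2 fold change of -6.29 (SE 0.14). HMOX1 (Entrez 3162), the heme-degrading enzyme heme oxygenase 1, was at 141 and 148 in MONO and 4.78 and 4.95 in CO, and its log2 fold change was -4.63. TNFRSF17 (Entrez 608) encodes BCMA, a receptor of plasma cells for the survival factors BAFF and APRIL. It was at RPKM 73 and 68.8 in MONO, 6.4 and 4.43 in TSW and 4.13 and 3.96 in CO, a log2 fold change of -3.83. In each of these genes both cocultured conditions were low and MONO was high. CD72, an inhibitory B cell receptor, was at 7.45 and 8.53 in MONO and 0.0806 and 0.117 in CO, and NCAM1, the adhesion molecule CD56 of many myeloma cells, at 10.6 and 10.04 in MONO and 0.453 and 0.412 in CO. TRIP13, an ATPase of the mitotic checkpoint, fell from 93.4 and 88.5 to 12.6 and 11.7, and the membrane protein gene EMP2 from 37.6 and 36.5 to 4.59 and 4.35. PCP4, a calmodulin regulator, was at 17.3 and 17 in MONO and 0 and 0.191 in CO. The immunoglobulin segments IGKV1D-8 and IGKV3D-7 were at 8.45 and 10.01 in MONO and 0 and 0.152 in CO for IGKV1D-8, and at 8.3 and 7.57 in MONO and 0 and 0.149 in CO for IGKV3D-7. Such segments have near-identical copies, so which copy the PETs came from is uncertain. CALML3, CD72, NCAM1, PCP4 and both segments would not have passed the expression filter without MONO, so the filter favoured their direction. For the last 3 genes the CO libraries held 3 or fewer PETs, and their fitted fold changes depend on the pseudocount.

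**Figure D2:**
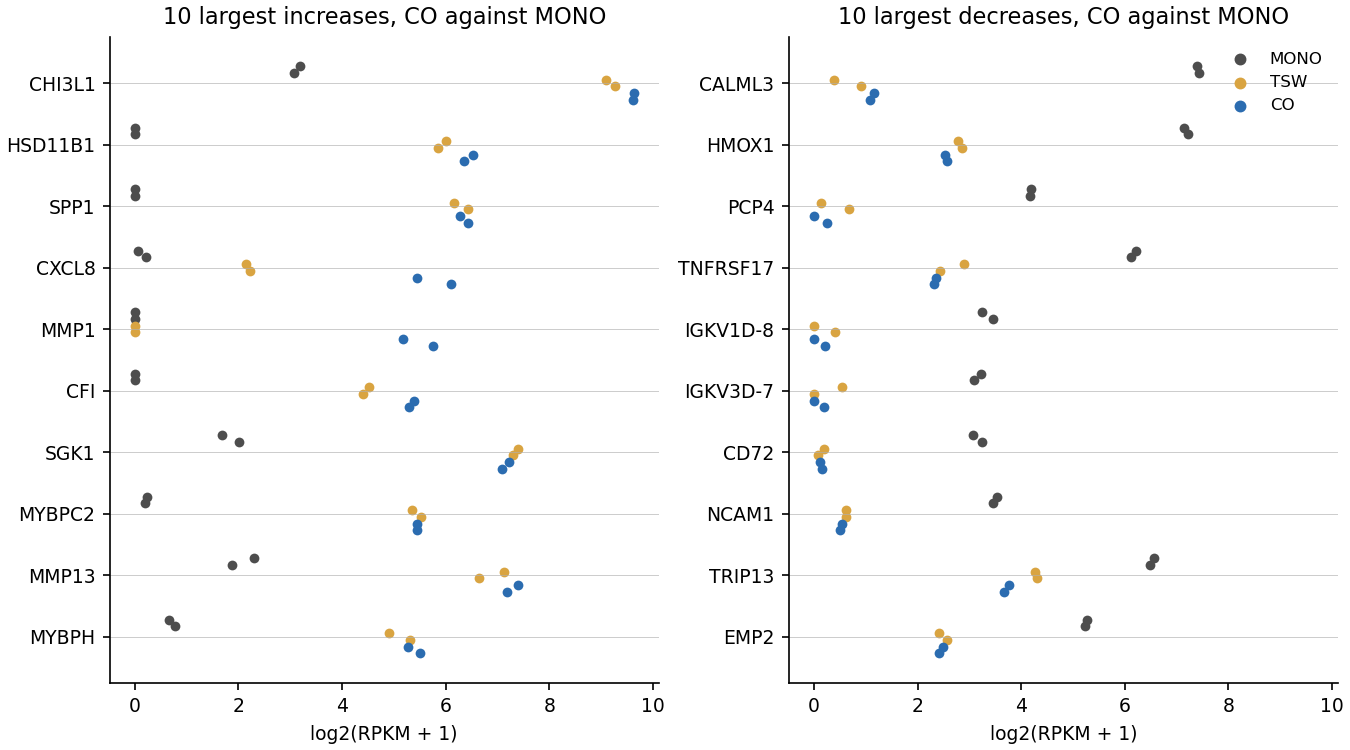
Each point is the log2(RPKM + 1) of a gene in 1 RPMI8226 library, with MONO in grey, TSW in yellow and CO in blue, for the 10 largest increases (left) and decreases (right) from MONO to CO. In 9 of the 10 increases TSW lies near CO or between MONO and CO, and MMP1 is at 0 in MONO and TSW.

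Gene lists by function were described by their counts of called genes and their median log2 fold change, beside those of all genes tested, of which 16.4% were higher and 22.9% lower with a median of -0.09. They were chosen with earlier results of these data known, and no list was tested as a set.

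**Figure D3:**
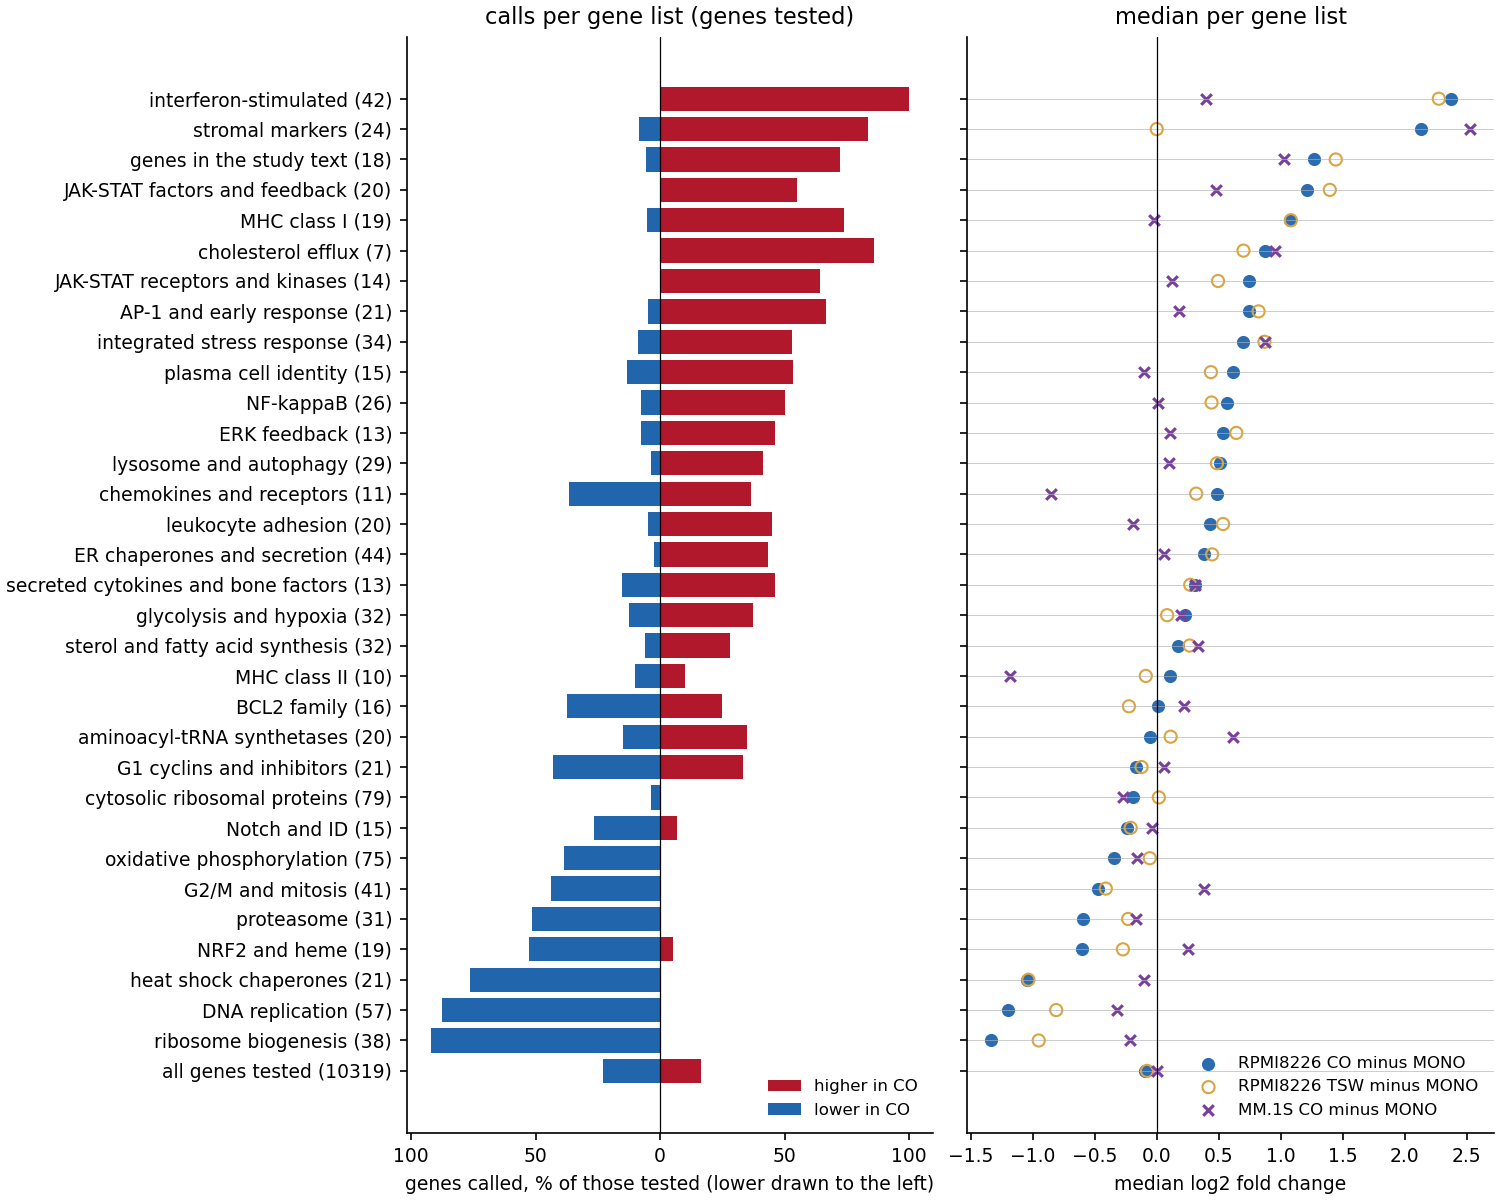
The bars give, for each gene list with its number of genes tested, the percentage called higher (red, right) and lower (blue, left) in CO against MONO, and the points the median log2 fold change in RPMI8226 CO minus MONO, RPMI8226 TSW minus MONO and MM.1S CO minus MONO. Interferon-stimulated genes stand at the top and ribosome biogenesis at the bottom, while the median of the aminoacyl-tRNA synthetases changes sign with scaling and that of the cytosolic ribosomal proteins with the correction for GC content and gene length. The median of the BCL2 family changes sign with the expression filter and with a library left out. Of the 24 stromal markers, 15 passed the filter through CO.

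Among 14 tested receptors and kinases of JAK-STAT signalling, 9 were called higher and 0 lower, with a median log2 fold change of 0.75. IL21R, the receptor for interleukin 21, was at RPKM 3.2 and 3.03 in MONO and 21 and 21.5 in CO, and IL2RG, the shared gamma chain, at 44.7 and 45 in MONO and 217 and 207 in CO. Both were several times higher in CO, without overlap. Of the receptor chains for interleukin 6, IL6R was at 44.3 and 43.3 in MONO and 31.3 and 30.2 in CO, and IL6ST at 27.5 and 23.8 in MONO and 39 and 34.5 in CO, with log2 fold changes of -0.50 and 0.51 that did not pass the fold threshold. JAK2 rose from 1.52 and 1.73 to 4.02 and 3.65, while JAK1 (0.43) and TYK2 (0.28) did not pass it. LIFR, OSMR and JAK3 were under the expression filter.

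Of 20 tested JAK-STAT factors and feedback genes, 11 were higher and 0 lower, with a median of 1.21, or 0.77 without the expression filter. SOCS3, a feedback inhibitor that binds gp130, was at RPKM 1.82 and 1.31 in MONO, 50.9 and 53.8 in TSW and 50.5 and 53.1 in CO, a log2 fold change of 4.37 (SE 0.10, limma, Benjamini-Hochberg adjusted p = 3.08e-10). STAT2 went from 6.18 and 5.35 to 55.6 and 51.8 and STAT3 from 17.6 and 17.9 to 54.8 and 54.9. All of these were high in both cocultured conditions and low in MONO. The transcriptional repressor gene BCL6 was at 0.0945 and 0.0796 in MONO and 3.28 and 3.28 in CO, and the kinase gene PIM2, the most abundant of this list, at 305 and 313 in MONO and 1058 and 1044 in CO. CISH, another feedback inhibitor, was at 3.91 and 3.92 in MONO and 12.6 and 14.9 in CO, a log2 fold change of 1.58. SOCS2, PIM1 and STAT5B did not pass, with log2 fold changes of 0.06, -0.19 and -0.36. SOCS1 and STAT5A were under the expression filter.

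Promoter sequence was searched on both strands for a STAT motif, TTCNNNGAA, in windows from 250 bases before to 50 after each gene's start, credited to RefSeq on build GRCh38.p14. A match lay in 7.88% of the 27305 promoters in that table, against 7.52% for genes called higher, 5.37% for genes called lower and 6.22% for all genes tested that had a promoter there. In the JAK-STAT factor list, 2 of 20 promoters held it, those of BCL6 and CISH. The interferon-stimulated list, described below and called higher throughout, had the largest share of the lists, 9 of 35 (25.7%). In MHC class I, which was mainly higher, the motif lay in 0 of 16 promoters, and in the proteasome list, which had 0 genes higher, in 3 of 26. The CISH window is shown because it holds 2 matches and the gene rose. It is the minus strand of chr3:50611833-50611932, with the matches in capitals. A match is a run of letters and was not tested as a binding site.
CISH: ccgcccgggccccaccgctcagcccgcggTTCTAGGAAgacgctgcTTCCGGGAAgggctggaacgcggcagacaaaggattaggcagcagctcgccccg

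Interferon-stimulated genes were called higher in all 42 tested, of 45 listed, with a median log2 fold change of 2.37, or 2.47 with the 2 floored genes at their bound. In TSW against MONO the 42 members were called higher as well, with a median of 2.28, beside 14.5% of all genes tested. MX1, an antiviral GTPase, was at RPKM 0.708 and 0.54 in MONO, 44 and 33.6 in TSW and 35.2 and 32.8 in CO, a log2 fold change of 4.43 (SE 0.12). The oligoadenylate synthetase gene OAS1 was at 4.55 and 3.74 in MONO, 71.4 and 60.2 in TSW and 63.6 and 60.01 in CO. These genes sat at a common high level in TSW and CO. GBP4, a guanylate-binding protein gene, was at 2.24 and 2.36 in MONO, 29.2 and 28.2 in TSW and 57.4 and 56.7 in CO, so that CO exceeded TSW without overlap, with a log2 difference of 0.97 (limma, Benjamini-Hochberg adjusted p = 2.59e-05). IFIT2, which binds viral RNA, behaved likewise, at 0.436 and 0.502 in MONO, 5.19 and 5.12 in TSW and 10.3 and 10.3 in CO. The part of HS5 RNA in the CO values of GBP4 and IFIT2 was not tested. IFI27, in contrast, was at 0 and 0.163 in MONO, 6.45 and 4.31 in TSW and 2.81 and 3.02 in CO, highest in TSW. MX1, IFIT2 and IFI27 averaged less than RPKM 1 in MONO and passed the expression filter through TSW and CO. The filter therefore favoured their direction, and a member that stayed low in all conditions could not be called. BST2, which tethers budding virus at the cell surface, was the most abundant member, at 285 and 288 in MONO and 732 and 727 in CO. HERC6 had the smallest called increase, 0.69. RSAD2, GBP5 and USP18 were under the expression filter, with RSAD2 at 0 and 0.0289 in MONO and 1.25 and 1.38 in CO. The GBP, IFIT and IFITM genes have close paralogs, so PETs could be shared between copies.

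A core of the interferon response motif, GAAANNGAA, was searched in the promoter windows after the expression data had been seen. It occurred on either strand in 23 of the 35 interferon-stimulated promoters in the RefSeq table (65.7%), in 6.65% of those of all genes tested and in 8.29% of all promoters, with 9.75% for genes called higher and 5.84% for genes called lower. It also lay in 9 of 16 promoters of MHC class I (56.2%), 5 of 13 of chemokines and their receptors (38.5%) and 4 of 11 of MHC class II (36.4%), and the last 2 lists were not mainly higher. The interferon-stimulated genes are known for such motifs, so the share describes the list and is no independent finding. The windows of IFI6 and GBP1 show how the matches lie, 3 in the IFI6 window and 1 in the GBP1 window. IFI6 rose from RPKM 21.5 and 23.2 to 208 and 208 and GBP1 from 0.302 and 0.149 to 10.5 and 9.49. Both are minus-strand sequences of GRCh38.p14, chr1:27672263-27672362 and chr1:89065281-89065380, with capitals on the match or on its reverse complement.
IFI6: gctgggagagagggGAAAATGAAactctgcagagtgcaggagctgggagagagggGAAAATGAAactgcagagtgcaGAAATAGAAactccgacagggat
GBP1: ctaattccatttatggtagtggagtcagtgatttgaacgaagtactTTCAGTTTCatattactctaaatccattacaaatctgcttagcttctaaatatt

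Antigen presentation by MHC class I presents cellular peptides to T cells, and 14 of its 19 genes were higher and 1 lower (0 without CO2), with a median of 1.07. B2M, the common light chain, was at RPKM 829 and 790.2 in MONO and 3133 and 3012 in CO, and the peptide transporter gene TAP1 at 33.5 and 36.2 in MONO and 128 and 130.1 in CO. HLA-E was at 42.6 and 43.1 in MONO and 198 and 186 in CO. Each was high in TSW and CO and low in MONO. HLA genes are polymorphic and alike in sequence, which makes their levels uncertain. The immunoproteasome subunit gene PSMB9 rose from 52.6 and 49.4 to 115 and 102, PSMB10 overlapped at 61.6 and 64.5 in MONO and 56.7 and 70.6 in CO, and the trimming peptidase gene ERAP1 fell from 17 and 16.4 to 11.1 and 9.82. ERAP1 did not pass with the other scalings or without CO2. In MHC class II, which presents taken-up peptides, 1 of 10 tested genes was higher and 1 lower, and the median was 0.10, or 0.34 after correction for GC content and gene length, 0.03 without MONO1 and 0.02 without CO2. The invariant chain gene CD74 rose from 521 and 538 to 931 and 878 and HLA-DMB fell from 4.19 and 4.59 to 1.75 and 1.98, while HLA-DRA was at 118 and 118 in MONO and 126 and 126 in CO. CIITA, the class II transactivator, was under the filter at 1.1 and 1.66 in MONO and 0.30 and 0.467 in CO.

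**Figure D4:**
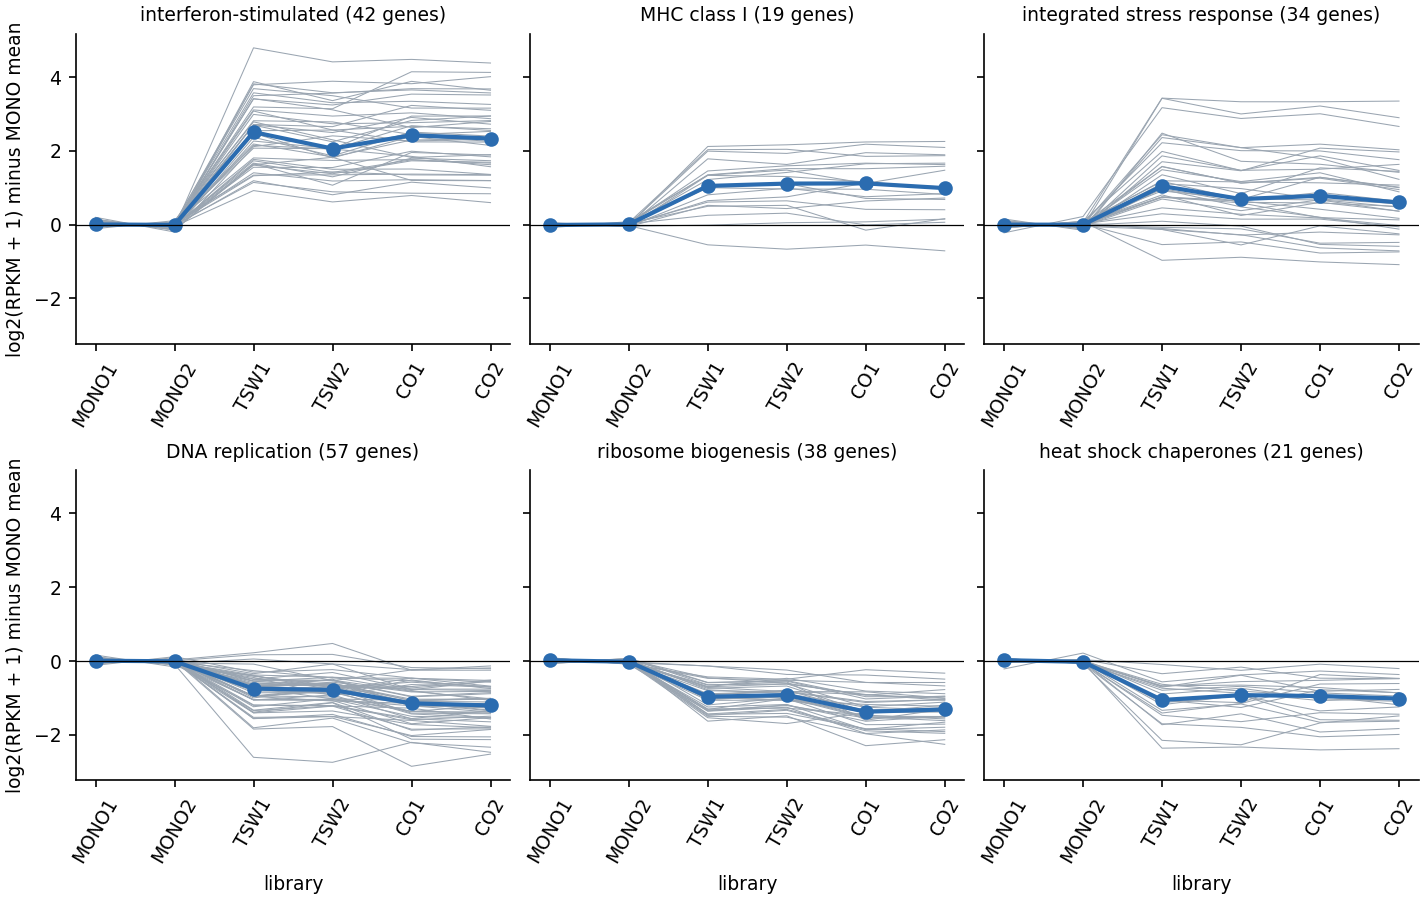
Each grey line is a tested member of a gene list, as log2(RPKM + 1) minus its mean over MONO1 and MONO2, across the 6 RPMI8226 libraries, and the blue line is the median of the list. The members of the top lists are mainly above 0 in TSW and CO and those of the bottom lists below 0, and the replication and ribosome biogenesis lists reach their lowest medians in CO.

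Of 21 tested AP-1 and early response genes, 14 were higher and 1 lower (median 0.74, or 1.33 with a pseudocount of 0.1). JUNB, an AP-1 subunit, was at RPKM 25.1 and 21.5 in MONO and 181 and 188 in CO, a log2 fold change of 2.94. ATF3, a stress-induced factor, was at 1.88 and 2.0 in MONO and 9.46 and 9.05 in CO, and FOS at 0 and 0.188 in MONO and 1.87 and 2.71 in CO. JUN rose from 11.3 and 9.8 to 16.1 and 16.5 but did not pass without MONO2 or without CO2. IER3 stood out by condition, at 0.905 and 1.25 in MONO, 1.57 and 1.48 in TSW and 5.63 and 6.82 in CO, and was raised mainly in CO. Stromal markers described further on were also raised mainly in CO, and the part of HS5 RNA in the IER3 values was not tested. MAFK, a small partner of AP-1-like factors, fell by 0.84 on the log2 scale. EGR2, EGR3, KLF4, FOSB, BATF3 and NR4A1 to NR4A3 were under the filter. The AP-1 motif TGACTCA, searched on both strands, lay in 4.62% of promoters of genes called higher, 1.88% of those called lower, 2.83% of those of all genes tested and 4.92% of all promoters.

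ERK feedback genes, induced by that kinase and acting back on it, were higher in 6 and lower in 1 of 13 tested genes. Their median was 0.53, or 0.31 without the filter and 1.23 with a filter of RPKM 5. DUSP5 and DUSP6, phosphatases of ERK, were at 21.4 and 20.3 in MONO and 128 and 134 in CO for DUSP5, and at 5.1 and 4.5 in MONO and 25.9 and 27.1 in CO for DUSP6. DUSP2 fell, from 9.23 and 10.7 to 3.27 and 4.52. Of 26 NF-kappaB genes, 13 were higher and 2 lower, with a median of 0.57. BIRC3, an inhibitor of cell death, was at 9.6 and 8.22 in MONO, 46.5 and 37 in TSW and 70.6 and 62.3 in CO, and the adhesion molecule gene ICAM1 at 58.4 and 60.5 in MONO, 194 and 201 in TSW and 202 and 176 in CO. BIRC3 was thus highest in CO, and ICAM1 overlapped between TSW and CO. NFKBIA, the inhibitor that NF-kappaB itself induces, was at 20.9 and 19.3 in MONO and 20.7 and 17.7 in CO, values that overlapped, and the subunit genes RELA and NFKB1 had log2 fold changes of 0.04 and -0.10.

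The integrated stress response slows translation and induces ATF4 and genes of amino acid supply. Of 34 tested genes in its list, 18 were higher and 3 lower, with a median of 0.69, or 1.10 with near-identical copies left out. Genes with such copies were flagged by symbol, mainly where RefSeq names a pseudogene of the gene, without comparing sequences. ATF4 was among those left out. DDIT4, an inhibitor of mTOR signalling, was at RPKM 39.9 and 43.3 in MONO, 458 and 428 in TSW and 428 and 433 in CO, a log2 fold change of 3.34 (SE 0.07, limma, Benjamini-Hochberg adjusted p = 1.82e-10). CHAC1, which degrades glutathione, was at 0.514 and 0.39 in MONO and 12.5 and 9.82 in CO, and CTH, an enzyme that makes cysteine, at 0.854 and 1.52 in MONO and 16.4 and 12.7 in CO. ATF4 rose from 157 and 154 to 286 and 242 and its partner DDIT3 from 5.18 and 3.99 to 16.3 and 13.8. These genes were high in both cocultured conditions. TRIB3, another ATF4 target, was at 19.4 and 22.3 in MONO, 41.4 and 29.5 in TSW and 24.1 and 19.1 in CO, highest in TSW and overlapping between MONO and CO. ATF5 fell by 1.05 on the log2 scale. PYCR1 and MTHFD1L, of proline and one-carbon metabolism, had log2 fold changes of -0.56 and -0.67, of which the latter passed, though not with the other scalings. NUPR1, GDF15, VLDLR and CBS were under the filter. The composite motif TGATGNAA lay on either strand in 6 of the 31 promoters of this list found in the table (19.4%), in 2.68% of promoters of genes called higher, 1.67% of those called lower, 1.65% of those of all genes tested and 3.67% of all promoters. It was more frequent in the aminoacyl-tRNA synthetases, in 6 of 16 (37.5%), a list with a median of -0.06.

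Among 20 aminoacyl-tRNA synthetases, 7 were higher and 3 lower. Their median was -0.06, with 0.05 under median-of-ratios scaling, -0.09 without CO1 and -0.01 without CO2. CARS1 had the largest increase, from RPKM 12.2 and 13.1 to 40.9 and 39.8, and FARSB the largest decrease, from 82.2 and 75 to 38.5 and 40.9. Of 44 genes of endoplasmic reticulum chaperones and secretion, 19 were higher and 1 lower (0 without CO1), with a median of 0.38. EDEM1, which directs misfolded proteins to degradation, was at 50.04 and 51 in MONO and 169 and 158 in CO, and DNAJB9, a co-chaperone, at 15.1 and 13.5 in MONO and 47.5 and 44 in CO. The major chaperone HSPA5 was at 481 and 487 in MONO and 613 and 578 in CO, higher in both CO libraries but below the fold threshold, and calreticulin (CALR) did not pass either, at 1069.7 and 1059 in MONO and 1189.6 and 1093 in CO. ERN1, a sensor of unfolded protein, rose from 23.5 and 25.9 to 52.8 and 48.2, and ATF6, another, by 0.65 on the log2 scale, a call that was lost after correction for GC content and gene length. The single decrease was SDF2L1, from 28.2 and 27.4 to 15.8 and 18.3, and it did not pass with the other scalings, after that correction or without CO1.

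Of 21 cytosolic and mitochondrial heat shock chaperones, 0 were higher and 16 lower, with a median of -1.05. HSP90AA1, an HSP90 isoform, was at RPKM 1031 and 983 in MONO, 195 and 199 in TSW and 188 and 193 in CO, a log2 fold change of -2.39 (SE 0.06, limma, Benjamini-Hochberg adjusted p = 7.76e-10). HSPA8, the constitutive HSP70, was at 1515 and 1491 in MONO and 474 and 484 in CO, and the mitochondrial chaperonin HSPD1 at 837 and 783 in MONO and 306 and 297 in CO. HSPH1 was at 78.3 and 70.8 in MONO and 17.2 and 18 in CO. All were low in both cocultured conditions. Their transcription factor HSF1 had a log2 fold change of -0.47, short of the threshold. Of 31 proteasome subunit genes, 0 were higher and 16 lower with a median of -0.59, and in TSW against MONO 4 were lower with a median of -0.23, beside 17.9% of all genes tested. PSMA7 went from 254 and 255 through 173 and 176 in TSW to 108 and 123 in CO, and PSMB5, the subunit that bortezomib binds, from 49.6 and 55.7 through 44.1 and 45.1 to 30.8 and 32.9. Both were lowest in CO, and PSMB5 did not pass with quantile normalization or after the GC and length correction.

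DNA replication genes were lower in 50 of 57, and 0 were higher, with a median of -1.20. GINS2, a subunit of the replicative helicase, was at RPKM 51.3 and 52.1 in MONO, 13.7 and 14.4 in TSW and 6.28 and 8.16 in CO, a log2 fold change of -2.69 (SE 0.10, limma, Benjamini-Hochberg adjusted p = 1.03e-08). The helicase genes followed, with MCM2 at 123 and 124 in MONO, 46.6 and 55.8 in TSW and 27.7 and 27.4 in CO, and MCM6 at 86.5 and 86.1 in MONO, 41.1 and 41.5 in TSW and 29.9 and 28.9 in CO. Each stepped down from MONO to TSW and again to CO, without overlap. In CO against TSW 9 of the 57 were called lower, beside 2.39% of all genes tested. TYMS, the thymidylate synthase gene, fell by 2.28 on the log2 scale. PCNA, the sliding clamp, was at 216 and 201 in MONO and 91.7 and 89.98 in CO. The members that did not pass were ORC2, ORC4, RPA3, RFC1, TK1, DBF4 and POLE, with TK1 at 178 and 186 in MONO, 213 and 254 in TSW and 153 and 153 in CO. In bulk RNA, fewer cycling cells and less RNA per cell cannot be told apart.

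An E2F-like motif, TTTNGCGC, was likewise searched after the expression data had been seen. It lay on either strand in 15 of the 49 replication promoters found (30.6%), in 5.21% of promoters of genes called lower, 1.41% of those called higher, 3.19% of those of all genes tested and 1.83% of all promoters. In ribosome biogenesis, a list that was mainly lower, 0 of 32 promoters held it. Among regulators of entry into the cycle, a divided list, 3 of 16 did (18.8%). The MCM6 window is shown because it holds 4 matches, with overlapping matches on opposite strands joined in 2 stretches of capitals. It is the minus strand of GRCh38.p14 chr2:135876509-135876608.
MCM6: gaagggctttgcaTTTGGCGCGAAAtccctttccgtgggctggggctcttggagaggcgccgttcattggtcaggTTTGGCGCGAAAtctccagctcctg

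Of 41 tested genes of mitosis, 18 were lower and 0 higher, with a median of -0.48. Without CO2 the lower count was 11. CDC20, which activates the anaphase-promoting complex, was at RPKM 106 and 105 in MONO and 31.1 and 29.5 in CO, and CCNB1, a mitotic cyclin gene, at 153 and 142 in MONO and 68.6 and 62.1 in CO. MKI67 was at 11.3 and 12.9 in MONO and 8.97 and 8.3 in CO, and CDK1 overlapped at 17.4 and 16.4 in MONO and 20.1 and 14.9 in CO. UBE2C was under the filter. Regulators of entry into the cycle were divided, with 7 of 21 higher, 9 lower and a median of -0.17, or -0.07 with median-of-ratios scaling, -0.02 with near-identical copies left out and -0.30 with genes under RPKM 2 in MONO and TSW left out. The inhibitors CDKN1A and CDKN1B were at 4.31 and 4.99 in MONO and 22.3 and 22.5 in CO for CDKN1A, and at 20.4 and 18.4 in MONO and 77.3 and 68.2 in CO for CDKN1B. CDKN1B was also higher in CO than in TSW, at 48.4 and 43.8, a log2 difference of 0.65. CDK4 went from 118 and 119.6 to 46.3 and 47.9, CCNE1 from 12.7 and 13.7 to 3.74 and 3.56 and CCND2, the most abundant cyclin D gene, from 145 and 147 to 73.1 and 73.4. CDK6 rose, from 39.4 and 41.1 to 62.4 and 64.8, a call lost once GC content and length were corrected for, and the inhibitor gene CDKN1C fell, from 5.7 and 5.18 to 0.959 and 1.1.

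Ribosome biogenesis genes gave the lowest median of the lists, -1.33, with 35 of 38 lower and 0 higher. MYC, a transcription factor that activates many of them, was at RPKM 384 and 384 in MONO, 152 and 166 in TSW and 131 and 133 in CO, a log2 fold change of -1.53. NCL and NPM1, abundant nucleolar proteins, were at 653 and 619.5 in MONO and 229 and 213 in CO for NCL, and at 493 and 457 in MONO and 179.6 and 181 in CO for NPM1. MRTO4, an assembly factor of the large subunit, fell by 2.22 on the log2 scale. MAX, the dimer partner of MYC, DDX21 and GNL3 did not pass, at -0.28, -0.44 and -0.58. Of 79 cytosolic ribosomal proteins, 3 were lower, or 6 without CO2, and 0 higher, with a median of -0.19, which was 0.02 after correction for GC content and gene length and -0.11 without CO1. Their genes have many processed copies, so their levels are uncertain.

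Of 75 nuclear genes of oxidative phosphorylation, 29 were lower and 0 higher, with a median of -0.34. The cytochrome gene CYC1 was at RPKM 167 and 182 in MONO, 127 and 149 in TSW and 84.6 and 88.8 in CO, lowest in CO. After correction for GC content and gene length the median of the list was -0.21. In TSW against MONO 4 of the 75 were lower, beside 17.9% of all genes tested. PETs from the mitochondrial genome moved in the other direction, from 3.24% and 3.31% of PETs in MONO to 4.80% and 4.62% in TSW and 5.47% and 5.72% in CO. Of the 13 protein genes of that genome that were tested, 8 were called higher and 0 lower, with a median log2 fold change of 0.73.

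Sterol and fatty acid synthesis had 9 of 32 genes higher and 2 lower (1 without CO1), with a median of 0.17, or 0.27 with median-of-ratios scaling, 0.11 after correction for GC content and gene length and 0.10 without MONO2. INSIG1, a sensor of sterol supply, was at RPKM 73.2 and 70.3 in MONO and 188 and 206 in CO, and SCD, a desaturase gene, at 141 and 138 in MONO and 343 and 348 in CO. Cholesterol efflux had 6 of 7 genes higher and 0 lower (median 0.87). Its transporter ABCA1 was at 0.852 and 1.02 in MONO, 20.6 and 19.8 in TSW and 23.5 and 24.3 in CO, a log2 fold change of 3.68. APOE and APOC1 were under the filter. Of 29 lysosome and autophagy genes, 12 were higher and 1 lower (0 without CO1) with a median of 0.51, and the cathepsin gene CTSS was at 33.1 and 32 in MONO and 117 and 119 in CO.

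Glycolysis and hypoxia genes were divided, with 12 of 32 higher, 4 lower and a median of 0.23, or 0.63 with near-identical copies left out. SLC2A5, a fructose transporter, was at RPKM 7.38 and 9.09 in MONO, 168 and 167 in TSW and 151 and 149 in CO, a log2 fold change of 4.04. HIF1A, the hypoxia-inducible factor subunit, was at 21.5 and 21.6 in MONO and 134 and 131 in CO. Against these, the glucose transporter gene SLC2A1 fell from 19 and 18.2 to 9.79 and 10.1 and the enolase gene ENO1 from 1349 and 1399 to 870.0 and 923. ENO1 did not pass with the other scalings, after the GC and length correction or without CO1. GAPDH was at 1463 and 1513 in MONO and 1033 and 1063 in CO, lower in both CO libraries but short of the threshold, and LDHA at 551 and 534 in MONO and 747 and 753 in CO. In the list of NRF2 targets and heme genes, 10 of 19 were lower and 1 higher, with a median of -0.61. Without MONO2 or without CO1, 2 were higher. After HMOX1, the largest decrease was in NQO1, a quinone reductase, at 31.4 and 33.3 in MONO, 8.86 and 8.51 in TSW and 5.52 and 6.78 in CO. NFE2L2, which encodes NRF2 itself, was the increase, from 12.5 and 12.7 to 20.4 and 19.7, and its log2 fold change after the GC and length correction (0.49) did not pass.

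Plasma cell genes were higher in 8 and lower in 2 of 15 tested, with a median of 0.62, and 11 of the 26 listed were under the filter. The median was 0.05 without the filter and 0.40 with near-identical copies left out, so it depended on which members were kept. FCRL2, a receptor of the Fc receptor-like family, was at RPKM 0.0422 and 0.0534 in MONO, 14.6 and 14.5 in TSW and 15.1 and 18.4 in CO. JCHAIN, which joins polymeric immunoglobulins, was at 1465 and 1366 in MONO and 2927 and 2815 in CO. PRDM1, the factor that drives plasma cell differentiation, rose from 7.81 and 8.34 to 18.9 and 18.5, and IRF4, another such factor, fell from 78.9 and 77.7 to 43.3 and 38.3. TNFRSF17 was the other decrease. Of the targets of lenalidomide, CRBN, IKZF1 and IKZF3, the last was called higher, with log2 fold changes of -0.14, -0.29 and 0.62. After the GC and length correction IKZF3 did not pass either (0.46).

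In the BCL2 family 4 of 16 genes were higher and 6 lower, and the median was 0.01, without a settled sign. It was 0.11 with median-of-ratios scaling, -0.02 without CO1 and -0.08 with a filter of RPKM 5. MCL1, which protects from cell death, was at RPKM 70.7 and 63.4 in MONO, 398 and 355 in TSW and 494 and 493 in CO, a log2 fold change of 2.86 (SE 0.08, limma, Benjamini-Hochberg adjusted p = 9.8e-10). BCL2 and BCL2L1, with the same function, did not pass, with log2 fold changes of -0.14 and -0.08. Of the members that promote cell death, BMF, PMAIP1 and BBC3 rose, with log2 fold changes of 2.14, 1.19 and 1.10, and BAX, BAD, BID, HRK and BIK fell, with BIK the lowest at -1.56. BAX and BAD did not pass after the GC and length correction (-0.32 and -0.38) or with median-of-ratios scaling (-0.49 and -0.58). BAX also failed to pass with quantile normalization (-0.48), without MONO2 (-0.53) and without CO2 (-0.58). BCL2L12 fell as well, by 1.21 on the log2 scale. BCL2L11 (BIM) was at 8.25 and 8.07 in MONO and 8.87 and 8.76 in CO.

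Leukocyte adhesion genes were higher in 9 and lower in 1 of 20 (median 0.43, or 1.02 with a filter of RPKM 5), with 2 lower without MONO2 and 3 without CO2. SELPLG, the P-selectin ligand, was at RPKM 60.5 and 63.9 in MONO and 321 and 293 in CO, and the integrin chain ITGA4, part of VLA-4, at 3.19 and 3.18 in MONO and 8.2 and 7.96 in CO. ITGB7 was the most abundant, at 326 and 354 in MONO and 437 and 467 in CO, under the threshold. Chemokines and their receptors had 4 of 11 higher and 4 lower (median 0.49, or 1.08 with a filter of RPKM 5). CCR2 and CCR1 were at 25.3 and 26 in MONO and 172 and 181 in CO for CCR2, and at 73.1 and 66 in MONO and 295 and 276 in CO for CCR1. CXCR4, the receptor for the stromal chemokine CXCL12, fell from 42.8 and 47.8 to 29.6 and 27.9, CXCR3 from 18.9 and 20.7 to 4.56 and 5.63 and CXCL10, an interferon-induced ligand of CXCR3, from 46.3 and 45.6 to 8.92 and 7.83. CXCR4 did not pass with median-of-ratios scaling (-0.53), quantile normalization (-0.51), the GC and length correction (-0.49) or without MONO2 (-0.56). RGS1, which dampens chemokine receptor signals, was at 2.63 and 3.32 in MONO, 20.6 and 24.8 in TSW and 37.7 and 43 in CO, and the ligand CCL5 at 44.9 and 45.5 in MONO, 130.4 and 151 in TSW and 146 and 145 in CO. CCL3, CCL4 and 7 more chemokine genes were under the filter.

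Of 13 secreted cytokines and bone factors, 6 were higher and 2 lower, with a median of 0.31. The median was 0.51 without MONO1, 0.14 without MONO2, 0.19 with genes under RPKM 2 in MONO and TSW left out and 0.47 after the GC and length correction. IL32 was at RPKM 61.9 and 62.9 in MONO and 567 and 569 in CO, IL10 at 0.534 and 0.735 in MONO and 9.59 and 9.75 in CO, and HBEGF, a ligand of the EGF receptor, at 0.068 and 0.0859 in MONO and 5.12 and 4.9 in CO. None of these overlapped. TGFB1 fell from 40.2 and 39.3 to 27.1 and 24.3 but did not pass with the other scalings, after that correction or without CO2. DKK1, an inhibitor of bone formation, was under the filter, at 0 in MONO and 0.102 and 0.059 in CO. Notch pathway and ID genes had 1 of 15 higher, or 3 without CO2, and 4 lower. Their median was -0.24, or -0.02 after correction for GC content and gene length and -0.42 with a filter of RPKM 5, with the ligand JAG2 at 11.7 and 12.3 in MONO and 2.37 and 2.85 in CO and the inhibitor ID3 at 6.6 and 7.03 in MONO and 18.8 and 19.7 in CO. Of 18 genes that the study's own text names, 13 were higher and 1 lower with a median of 1.26. That list was taken from the study that made these libraries, so its direction is not independent evidence.

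Stromal markers were counted because the CO sort could have left HS5 RNA. No gene was removed as stromal from the counts of called genes above. Of 59 listed genes, 54 had a PET in some library and 24 passed the expression filter. In 15 of these the MONO and TSW libraries alone averaged less than RPKM 1, so they passed the filter through CO and their direction was set by it. This division was chosen after seeing the data. Of the other 9 markers, CO against MONO gave 5 higher and 2 lower, beside 16.4% and 22.9% of all genes tested. In CO against TSW 2 of the 9 were higher and 0 lower, beside 1.9% and 2.39%, and in TSW against MONO 3 were higher and 3 lower, beside 14.5% and 17.9%. Without an expression filter, 29 of the 54 were called higher and 2 lower for CO against MONO, when 1854 of all 16784 genes tested were higher and 2501 lower. The most abundant marker was FN1, a matrix protein gene that RPMI8226 itself expressed, at RPKM 3989.7 and 4309.9 in MONO, 1678 and 1962 in TSW and 2007 and 2169 in CO. FN1 alone took 3.67% and 3.96% of all PETs in MONO, 1.54% and 1.80% in TSW and 1.85% and 1.99% in CO, and it was lower in CO.

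Without FN1, the summed RPKM of the markers was 97.8 and 103.2 in MONO, 93.2 and 100.3 in TSW and 274.7 and 375.6 in CO. As a share of PETs this was 0.0429% and 0.0450% in MONO, 0.0482% and 0.0520% in TSW and 0.0934% and 0.117% in CO. Both CO libraries were above all 4 others, and CO2 was above CO1. For the 50 markers that averaged less than RPKM 2 in MONO and in TSW, the sum was 2.74 and 2.74 in MONO, 3.55 and 3.18 in TSW and 129.9 and 197.7 in CO. Of the 59 genes, 17 had no PET in MONO or TSW and PETs in both CO libraries. MMP1 was the highest of these, at RPKM 35.1 and 53.2 in CO, at least 205-fold higher than MONO. TFPI2 was at 15.7 and 22.4, IL6 at 6.44 and 6.25, the collagen gene COL1A2 at 4.05 and 5.85 and COL3A1, another, at 2.69 and 2.86. CXCL8 was at 0.047 and 0.158 in MONO, 3.42 and 3.66 in TSW and 42.7 and 67.9 in CO, and IL1B at 0.0454 and 0 in MONO, 0.336 and 0.474 in TSW and 11.3 and 20.6 in CO.

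Among defining markers, COL1A1 was at RPKM 0.418 and 0.512 in MONO and 0.94 and 1.41 in CO, DCN at 0 and 0 in MONO and 0.772 and 1.15 in CO, LUM at 0 and 0 in MONO and 0.029 and 0.0252 in CO, and PDGFRB at 0.0122 and 0.0103 in MONO and 0.0467 and 0.0487 in CO. COL6A3, POSTN, VCAM1, TIMP3 and CXCL1 had no PET in any library. The part that HS5 RNA had in the genes called higher in CO was not tested. With the genes that averaged less than RPKM 2 in MONO and in TSW left out, 1579 genes were called higher and 2336 lower in CO against MONO. The large increases of CHI3L1, HSD11B1, SPP1, CFI, SGK1 and SOCS3 were also present in TSW, at the values given above.

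**Figure D5:**
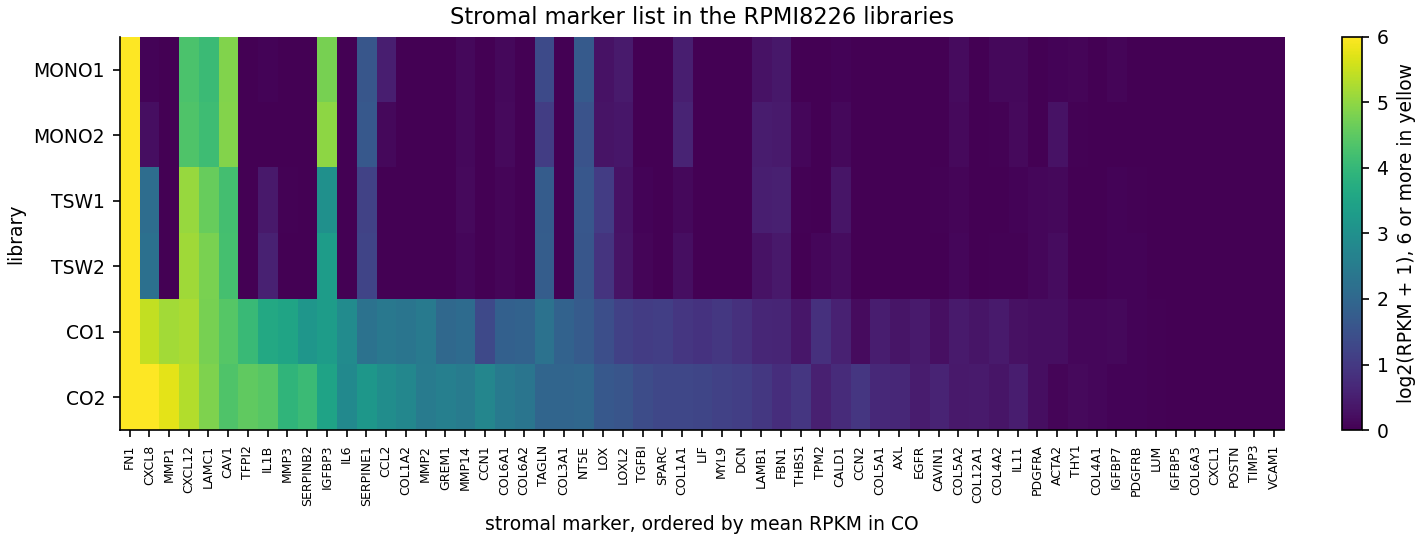
Each column is a stromal marker, ordered by its mean RPKM in CO, and each row an RPMI8226 library, with log2(RPKM + 1) as colour from 0 (dark) to 6 or more (yellow). FN1, CXCL12, LAMC1, CAV1 and IGFBP3 are expressed in all 6 libraries, while most other markers are above 0 mainly in CO1 and CO2.

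Direct coculture was also set against TSW, which shared the plates and the soluble factors. For genes higher in CO than in TSW, the part of HS5 RNA was not tested. In this comparison 196 genes were higher in CO (1.9%) and 247 lower (2.39%) of the 10319 tested. The split depended on processing: with quantile normalization 249 were higher and 173 lower, and after correction for GC content and gene length 159 and 97. Without TSW1 the counts were 383 and 335. Both comparisons share the CO libraries, so their values are given side by side without a measure of overlap. For the interferon-stimulated list the median log2 difference was 0.04 against TSW, for MHC class I -0.03 and for the integrated stress response -0.19, beside -0.04 for all genes tested. For DNA replication it was -0.38, with 9 of 57 lower, and for ribosome biogenesis -0.38, with 5 of 38 lower. The oxidative phosphorylation list had 13 of 75 lower and 3 higher against TSW, with a median of -0.42, and the proteasome list 4 of 31 lower, with a median of -0.26. These list values against TSW were not recomputed after the correction for GC content and gene length. That correction took the lower calls over all genes from 247 to 97, so the lower list counts may not hold under it. SKIL, a repressor of SMAD signalling, was at RPKM 15.3 and 14 in MONO, 4.35 and 4.57 in TSW and 9.61 and 10.4 in CO, lower in TSW than in both other conditions.

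MM.1S was cultured under the same conditions with 3 libraries each. Its table was normalized separately, so tests were made within each table and levels set across the tables are only approximate. In MM.1S, CO against MONO gave 724 genes higher (7.13%) and 472 lower (4.65%) of 10153 tested. Of the 45 interferon-stimulated genes listed, 30 were tested in MM.1S, and 9 of these were higher and 0 lower, with a median log2 fold change of 0.40. Over the 9397 genes tested in both tables the MM.1S median was 0.01. For DNA replication MM.1S had 7 of 57 lower and a median of -0.32, for ribosome biogenesis 0 of 38 and -0.21, and for heat shock chaperones 1 of 21 higher, 1 lower and -0.10. Genes of mitosis had 7 of 42 higher and 0 lower in MM.1S, with a median of 0.38. Among NRF2 targets and heme genes 4 of 19 were higher and 0 lower, with a median of 0.25. The medians of these 2 lists were negative in RPMI8226. In the integrated stress response list, 24 of 35 were higher and 1 lower, with a median of 0.88. MHC class II had 10 of 11 lower, with a median of -1.19. Of 28 stromal markers tested in MM.1S, 22 passed the filter through CO, and of the other 6, 1 was higher and 1 lower. The RPKM of all listed markers other than FN1 summed there to 37.3, 41.2 and 41.3 in MONO and 250, 269 and 238 in CO. The difference between the lines in these lists was not tested. SOCS3 rose in MM.1S by 5.95 on the log2 scale, SLC2A5 by 4.35, DDIT4 by 3.06 and JUNB by 2.15. MX1 rose there by 0.78, against 4.43 in RPMI8226. TNFRSF17 fell in both lines, with a log2 fold change of -2.14 in MM.1S. CHI3L1, HSD11B1, CFI and MYBPC2 were under the expression filter in MM.1S.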

How the data were processed

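Messenger RNA of RPMI8226 (6 libraries) and MM.1S (9 libraries) was sequenced in 3 culture conditions, with each deposited column as 1 library. By the submitters' notes, reads were aligned to hg38 with Subread and counted on RefSeq genes with featureCounts, and the authors tested counts with edgeR. The deposited values are on the log2 scale: the authors took RPKM + 1, its logarithm, and a constant of 1e-04 on top, which was subtracted here. PETs were recovered from the spacing of the deposited values. For 100% of 218078 nonzero values the result was a whole number to within 0.05. PETs gave the depth of each library, 12479636 in the shallowest and 18789348 in the deepest, and the floor of 3 PETs for a value of 0. All columns of both tables were used.

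RPMI8226 genes that averaged RPKM 1 or more over the 6 libraries were tested with the R 4.3.3 package limma (version 3.58.1), on log2(RPKM + 1). The fit held 3 conditions, had 3 residual degrees of freedom and used eBayes with a trend. A call needed a fold change over 1.5 together with an adjusted p (Benjamini-Hochberg) under 0.05, for CO against MONO, CO against TSW and TSW against MONO. MM.1S was fitted separately in the same way. Before use, calling was tested on simulated data, once with changed genes and once with none. Tables and figures were made with Python 3.11.15, numpy 2.4.6, pandas 2.3.3 and matplotlib 3.10.9.

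The genes named are the 10 largest increases and 10 largest decreases among called genes without overlap, the 10 largest increases among genes that averaged RPKM 2 or more in MONO or TSW, members of the gene lists, and the sort genes CD38 and THY1. From the lists, the members with the largest change, the most abundant and some that did not pass were named. Members and lists were chosen with earlier results of these data known. As alternatives, the pseudocount was set to 0.1, the filter was dropped or raised to RPKM 5, and scaling was done by median of ratios or by quantiles. Others added a replicate block, fitted 2 conditions, took eBayes with no trend, dropped the fold threshold, used voom on PETs, or left out a library, genes low in MONO and TSW, or genes with near-identical copies. The last were flagged by name: pseudogenes, genes whose symbol matches a RefSeq pseudogene, ribosomal protein genes and genes of the mitochondrial genome. Sequences were not compared and close paralogs were not sought. A loess correction (span 0.3) for gene length and GC content could be made for 99.4% of the genes tested. Promoter sequences came from RefSeq on GRCh38.p14. Some genes are not reported here.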

Additional observations from a re-analysis of the deposited data

Results flagged for a closer look

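For some genes the CO libraries lay all on one side of the MONO libraries in RPMI8226 and all on the other side in MM.1S. Of the 163 genes named here and tested in both lines, 24 lay on opposite sides in this way (14.7%), 81 lay on the same side without overlap in both lines (49.7%), and 58 overlapped in a line (35.6%). Over all 9397 genes tested in both lines the shares were 8.97%, 30.0% and 61.1%. The difference between the lines was not tested for any of them. In parentheses are the log2 fold changes of CO against MONO in RPMI8226 and in MM.1S.

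Called higher in RPMI8226 and lying lower in MM.1S were CCL5 (1.66 and -2.68), CD74 (0.77 and -0.84), DUSP6 (2.25 and -0.33), HLA-E (2.14 and -0.23), ID3 (1.38 and -1.36), IL21R (2.43 and -0.44), IL2RG (2.22 and -0.32), JCHAIN (1.02 and -0.91) and RGS1 (3.38 and -1.20). Called lower in RPMI8226 and lying higher in MM.1S were CCND2 (-0.98 and 0.37), ERAP1 (-0.63 and 0.49), FN1 (-0.99 and 2.27), HMOX1 (-4.63 and 1.11) and MTHFD1L (-0.67 and 0.29).

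Not called in RPMI8226, with CO values above MONO there and below it in MM.1S, were CALR (0.0997 and -0.40), HLA-DRA (0.0912 and -1.62), ITGB7 (0.41 and -0.63) and TYK2 (0.28 and -0.16). Not called, with CO values below MONO in RPMI8226 and above it in MM.1S, were BCL2L1 (-0.0767 and 0.31), IL6R (-0.50 and 0.37), ORC2 (-0.50 and 0.48), PIM1 (-0.19 and 0.23), PYCR1 (-0.56 and 0.70) and STAT5B (-0.36 and 0.27). The RPMI8226 value of BCL2L1 was positive with median-of-ratios scaling (0.0303), quantile normalization (0.055) and the GC and length correction (0.0722), so its side depended on processing. FN1 is also a stromal marker. The RPKM of the other listed markers in MM.1S summed to 37.3, 41.2 and 41.3 in MONO and 250, 269 and 238 in CO, and the part of HS5 RNA was not tested.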

How the results depend on the processing

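In CO against MONO, 1693 genes were higher and 2363 lower, and the count moved by more than 1.5 times without the fold threshold, to 3123 higher and 4299 lower, because fewer conditions were asked of a gene. With each library left out in turn the counts lay between 1679 and 1756 higher and between 2328 and 2397 lower. The lone library of a condition is then assumed to vary like those of the other conditions.

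In CO against TSW, 196 genes were higher and 247 lower. The higher count was 296 with a pseudocount of 0.1, 322 with voom on PETs and 1045 without the fold threshold, and the lower count without the threshold was 1804. With near-identical copies left out, where 8222 genes were tested, 118 were higher and 149 lower. After correction for GC content and gene length 97 were lower, also with the replicate block. With each library left out the counts lay between 132 and 383 higher and between 187 and 335 lower, and TSW1 moved them most, to 383 higher and 335 lower without it. For the pseudocount, voom, the correction and TSW1 the cause was not tested.

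Libraries with the same number were compared as possible pairs. The correlation of their differences was 0.164 for CO against MONO, 0.170 for CO against TSW and 0.271 for TSW against MONO. With the replicate number as a block 1694 and 2365 genes were called in CO against MONO, and 200 and 248 in CO against TSW.

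Of 2558 values of named genes under the alternatives that kept all libraries, 2466 stayed in direction and on their side of the threshold, 39 newly passed, 38 no longer passed and 15 changed sign. Those that changed sign were genes not called in RPMI8226. On the log2 scale they were BCL2L1 (0.0303), NFKB1 (0.0026) and NFKBIA (0.0384) with median-of-ratios scaling, BCL2L1 (0.055) and NFKBIA (0.0269) with quantile normalization, and BCL2L1 (0.0722), BCL2L11 (-0.0165), CDK1 (-0.13), NFKBIA (0.18) and RPA3 (0.0165) after the correction, with the same values under the block. With each library left out in turn, 10 values changed sign, and the ranges were -0.17 to 0.24 for CDK1, -0.17 to 0.0391 for NFKBIA, -0.15 to 0.16 for PSMB10, -0.0147 to 0.0896 for RELA, -0.0623 to 0.19 for SOCS2 and -0.12 to 0.20 for TRIB3. Another 9 values lost their call and 7 gained one. Calls were lost, with these log2 values, for BAD (-0.58), BAX (-0.49), CXCR4 (-0.53), ENO1 (-0.51), ERAP1 (-0.53), MTHFD1L (-0.57), SDF2L1 (-0.57) and TGFB1 (-0.51) with median-of-ratios scaling. They were lost for BAX (-0.48), CXCR4 (-0.51), ENO1 (-0.55), ERAP1 (-0.55), MTHFD1L (-0.57), PSMB5 (-0.57), SDF2L1 (-0.55) and TGFB1 (-0.47) with quantile normalization. They were lost for ATF6 (0.47), BAD (-0.38), BAX (-0.32), CDK6 (0.32), CXCR4 (-0.49), ENO1 (-0.46), IKZF3 (0.46), NFE2L2 (0.49), PSMB5 (-0.46), SDF2L1 (-0.33) and TGFB1 (-0.41) after the correction for GC content and gene length, also with the block. With 1 library left out they were lost for ENO1 (-0.57) and SDF2L1 (-0.58) without CO1, BAX (-0.58), ERAP1 (-0.55), JUN (0.57) and TGFB1 (-0.54) without CO2 and BAX (-0.53), CXCR4 (-0.56) and JUN (0.50) without MONO2. Of 896 counts within gene lists with all libraries kept, 87 moved by more than 1.5 times, and of 447 list medians 146 moved by more than the spread between libraries. With a library left out, 11 of 384 such counts and 36 of 192 medians moved. List medians that moved by more than 1.5 times with filters or transformations were, without a filter, JAK-STAT factors and feedback (1.21 to 0.77), ERK feedback (0.53 to 0.31), plasma cell identity (0.62 to 0.05), BCL2 family (0.01 to -0.03), Notch and ID (-0.24 to -0.13) and stromal markers (2.13 to 0.68); with a pseudocount of 0.1, AP-1 and early response (0.74 to 1.33), BCL2 family (0.01 to 0.02) and stromal markers (2.13 to 4.66); with voom on PETs, AP-1 and early response (0.74 to 1.37), BCL2 family (0.01 to 0.02) and stromal markers (2.13 to 6.43); with a filter of RPKM 5, ERK feedback (0.53 to 1.23), BCL2 family (0.01 to -0.08), leukocyte adhesion (0.43 to 1.02), chemokines and receptors (0.49 to 1.08), Notch and ID (-0.24 to -0.42) and stromal markers (2.13 to 0.95); with near-identical copies left out, integrated stress response (0.69 to 1.10), aminoacyl-tRNA synthetases (-0.06 to -0.12), G1 cyclins and inhibitors (-0.17 to -0.02), sterol and fatty acid synthesis (0.17 to 0.26), glycolysis and hypoxia (0.23 to 0.63) and plasma cell identity (0.62 to 0.40); with genes under RPKM 2 in MONO and TSW left out, G1 cyclins and inhibitors (-0.17 to -0.30), secreted cytokines and bone factors (0.31 to 0.19) and stromal markers (2.13 to 0.68). The cause was not tested. Cytosolic ribosomal proteins have no value with near-identical copies left out, since that alternative removes the list. Depth limits genes near 1 PET, an RPKM of 0.0401 in MONO1 on 2 kilobases.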
